A study of Drosophila melanogaster with 24 samples.

Results

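Ventral targets of Dorsal and mesoderm genes were described in single Drosophila embryos that lack most of Acf, the gene of the large regulatory subunit of the nucleosome remodeling complexes ACF and CHRAC, and in wild-type embryos. The genes were chosen by name, with earlier results of these data known. They comprise twist (twi), snail (sna), rhomboid (rho), single-minded (sim), heartless (htl), stumps, tinman (tin), Mef2, zfh1 and held out wings (how), which are 10 of the 17370 genes in the count table. The AcfC embryos carried a CRISPR/Cas9 deletion of the Acf gene that spares its UTRs, from a line backcrossed for 8 generations to Oregon-R. The wild-type (WT) embryos were Oregon-R (OrR). Both genotypes were collected at Bownes Stage 8, around 4 h and after zygotic genome activation (ZGA), and at Bownes Stage 3, around 1 h and before ZGA. Each of the 4 groups held 6 embryos, and each library was made from 1 embryo picked by its morphology, so the replicates were separate animals. The libraries were depleted of rRNA and did not keep the strand of the RNA. A whole embryo was measured in every case, so fewer cells of a type and less RNA per cell cannot be told apart.

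In the early embryo, maternal Toll signalling on the ventral side lets the transcription factor Dorsal enter the nuclei, in a gradient that is highest ventrally. High Dorsal turns on twi and sna, whose products define the mesoderm and drive the invagination of the ventral furrow. The flanking cells express sim at the future midline and rho in the ventral neuroectoderm, and inside the embryo the mesoderm spreads under FGF signals and switches on tin, Mef2 and other genes of muscle, heart and fat body.

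The total count per embryo lay between 4213692 and 11935129, with 2030997 to 7639980 counts in protein-coding genes. Levels are given in counts-per-million (CPM), scaled by TMM factors over all embryos. Genes with a Benjamini-Hochberg adjusted p under 0.1 in edgeR's quasi-likelihood test over all genes tested were called. Acf itself averaged 51.8 ± 11.0 CPM in AcfC embryos and 495 ± 12.9 CPM in WT embryos after ZGA (SD, n = 6 each). Its log2 fold change was −3.25 (SE 0.115, adjusted p = 3.71e-10 by edgeR). The study left out 1 AcfC embryo of Stage 3 for improper staging, which its mean counts identify as replicate 2, so that 5 AcfC and 6 WT embryos were compared before ZGA. In AcfC replicate 5 of Stage 8, 7 of the 10 genes had their highest level of the 12 embryos and tin had its lowest. The members summed to 4210 CPM there, while the other AcfC embryos of Stage 8 reached at most 2760 CPM and the WT embryos at most 2580 CPM. Values with and without that embryo are therefore given for every member after ZGA. The library indexes recurred between replicates 1 to 3 and replicates 4 to 6, and these 2 index sets, each of which holds both genotypes, were read as possible batches.

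twi (FBgn0003900, chromosome arm 2R, 22985374 to 23048325, plus strand, BDGP6) encodes the bHLH activator of the mesoderm. At Stage 8 it had a lowest, median and highest level of 244, 316 and 507 CPM in AcfC embryos, against 213, 290 and 338 CPM in WT embryos. The ranges overlapped, with 2 AcfC embryos above every WT embryo. The log2 fold change of AcfC over WT was 0.28 (SE 0.163, 95% interval −0.07 to 0.62, adjusted p = 0.424 by edgeR), and 0.13 without AcfC replicate 5. An antisense RNA and CG9897 share 12.2% of the exon bases of twi, and reads of the opposite strands there were not told apart. sna (FBgn0003448, 2L, 15476593 to 15478260, minus strand) encodes the zinc finger repressor that keeps neuroectodermal genes off in the mesoderm. Its lowest, median and highest levels were 157, 234 and 417 CPM in AcfC embryos, against 135, 175 and 230 CPM in WT embryos. The AcfC values were spread more widely, with a coefficient of variation of 39.1% against 17.6% in WT, and 3 AcfC embryos lay above every WT embryo. For sna the log2 fold change was 0.49 (SE 0.214, interval 0.03 to 0.94, adjusted p = 0.275 by edgeR) and 0.28 without AcfC replicate 5.

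Next to the mesoderm, rho (FBgn0004635, 3L, 1463811 to 1468944, plus strand) encodes the intramembrane protease that releases the EGF receptor ligand Spitz. It had a lowest, median and highest level of 59.0, 83.8 and 132 CPM in AcfC embryos, against 50.1, 67.2 and 89.1 CPM in WT embryos. The groups overlapped, and the log2 fold change was 0.34 (SE 0.192, interval −0.07 to 0.75, adjusted p = 0.404 by edgeR) and 0.18 without AcfC replicate 5. sim (FBgn0004666, 3R, 13057755 to 13078124, plus strand) encodes the bHLH-PAS regulator of the midline. Its 6 AcfC embryos had 110, 96.0, 112, 134, 116 and 56.7 CPM, against 78.3, 71.8, 87.9, 77.6, 71.4 and 54.6 CPM in the WT embryos. All AcfC embryos other than replicate 6 lay above every WT embryo. The log2 fold change of sim was 0.50 (SE 0.173, interval 0.13 to 0.87), with adjusted p = 0.166 by edgeR, and 0.46 without AcfC replicate 5. sim passed the cutoff when AcfC replicate 6 was left out (0.62, adjusted p = 0.0226 by edgeR), and also with DESeq2 (adjusted p = 0.0864), with all 4 groups in one edgeR fit (0.0622) and with the replicate number as a block (0.0842). In the other 18 of 22 alternatives sim did not pass, with an adjusted p of up to 0.472 by edgeR in the second index set.

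**Figure D1:**
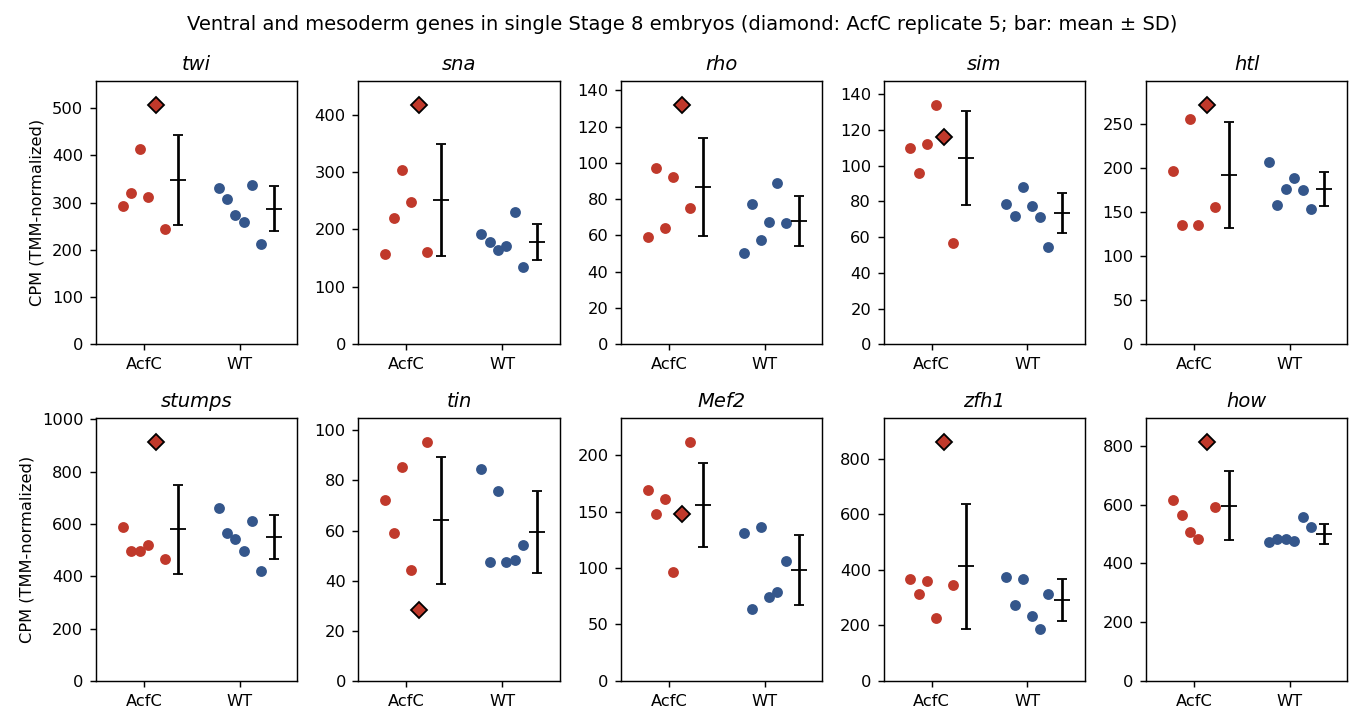
Level of each of the 10 genes in single Stage 8 embryos, in TMM-normalized CPM on a linear axis from 0, with AcfC embryos (red) left of WT embryos (blue); the black bar is the mean ± SD of 6 embryos and the diamond is AcfC replicate 5. The diamond is the highest point for 7 genes and the lowest for tin, and every gene has AcfC embryos within the WT range.

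Of the FGF genes of the spreading mesoderm, htl (FBgn0010389, 3R, 18045216 to 18052984, minus strand), the FGF receptor of the mesoderm, had a lowest, median and highest level of 135, 177 and 272 CPM in AcfC embryos, against 154, 176 and 207 CPM in WT embryos. With 2 AcfC embryos above and 2 below every WT embryo, the AcfC values enclosed those of WT. For htl the log2 fold change was 0.12 (interval −0.24 to 0.47, adjusted p = 0.795 by edgeR) and −0.02 without AcfC replicate 5. stumps (FBgn0020299, 3R, 14577217 to 14608079, plus strand) encodes the adaptor that couples the FGF receptor to its signalling. It had 466, 508 and 915 CPM as lowest, median and highest level in AcfC embryos, against 420, 554 and 662 CPM in WT embryos. The value of 915 CPM belonged to replicate 5, and the other AcfC embryos had at most 588 CPM, within the WT range. The log2 fold change was 0.07 (interval −0.26 to 0.41, adjusted p = 0.873 by edgeR) and −0.11 without that embryo.

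Among the transcription factors of the later mesoderm, Mef2 differed most. Mef2 (FBgn0011656, 2R, 9913496 to 9958858, minus strand) encodes the MADS-box activator of muscle genes. The 6 AcfC embryos had 169, 148, 161, 96.8, 148 and 212 CPM, against 131, 63.4, 136, 74.5, 79.0 and 106 CPM in the WT embryos. All AcfC embryos other than replicate 4, the least deeply sequenced library, lay above every WT embryo. AcfC exceeded WT by 0.66 on the log2 scale (SE 0.196, interval 0.24 to 1.08, adjusted p = 0.104 by edgeR), just outside the cutoff of 0.1. It was 0.66 without AcfC replicate 5 as well (adjusted p = 0.141 by edgeR). Mef2 passed the cutoff without AcfC replicate 4 (0.75, adjusted p = 0.0585 by edgeR) and without WT replicate 3 (0.77, 0.0834). It also passed with DESeq2 (adjusted p = 0.0315), RLE size factors in edgeR (0.0988), the filterByExpr filter (0.0988), the replicate number as a block (0.0501) and one edgeR fit of all 4 groups (0.0122). In the other 15 of 22 alternatives Mef2 did not pass, with an adjusted p of up to 0.456 by edgeR in the first index set.

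tin (FBgn0004110, 3R, 21378977 to 21381970, plus strand) encodes the homeodomain factor of the dorsal mesoderm and heart. Its lowest, median and highest levels were 28.4, 65.5 and 95.5 CPM in AcfC embryos, against 47.4, 51.2 and 84.5 CPM in WT embryos. With 2 AcfC embryos above and 2 below every WT embryo, the groups were not separated, and the log2 fold change was 0.10 (interval −0.43 to 0.63, adjusted p = 0.892 by edgeR) and 0.24 without AcfC replicate 5. zfh1 (FBgn0004606, 3R, 30765926 to 30789202, plus strand) encodes a zinc finger homeodomain protein of the early mesoderm and its descendants. It had 226, 352 and 861 CPM as lowest, median and highest level in AcfC embryos, against 186, 293 and 374 CPM in WT embryos. AcfC replicate 5 was the only AcfC embryo above the WT range, and without it the log2 fold change of 0.49 (SE 0.266, adjusted p = 0.38 by edgeR) was 0.13. An antisense RNA shares 4.6% of the exon bases of zfh1. how (FBgn0264491, 3R, 22042191 to 22079321, plus strand) encodes an RNA-binding protein of the STAR family that acts in mesoderm and tendon cells. It had 483, 578 and 814 CPM in AcfC embryos as lowest, median and highest level, against 472, 483 and 557 CPM in WT embryos. Of the AcfC embryos, 4 lay above every WT embryo, and the log2 fold change was 0.25 (SE 0.105, interval 0.03 to 0.47, adjusted p = 0.255 by edgeR) and 0.13 without replicate 5. In one fit of all 4 groups how passed the cutoff (0.26, adjusted p = 0.0792 by edgeR), which was 1 of 22 alternatives.

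Thus 0 of the 10 genes were called in AcfC against WT after ZGA by edgeR, where 404 of 9448 genes tested were called (4.28%). At an unadjusted p under 0.05 there were 4 (sna, sim, Mef2 and how), and 16.2% of all genes were below that value. DESeq2, the tool of the study, called 2, sim and Mef2. None of the 10 had every AcfC embryo above every WT embryo, as 1.12% of all genes had. All 10 log2 fold changes were positive, from 0.07 to 0.66 with a median of 0.31, while over all genes the median was 0.014 and 52.3% were positive. Without AcfC replicate 5 the median of the members was 0.15. Within the first index set 9 of the 10 were positive (median 0.20) and within the second all 10 (0.40), with none called in either. Mef2 had 0.52 in the first set and 0.80 in the second, sim had 0.41 and 0.58, and stumps, the exception, had −0.17 and 0.30. The genes share the same embryos and some pairs of them vary together between embryos, so their common sign is a description and was not tested.

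**Figure D2:**
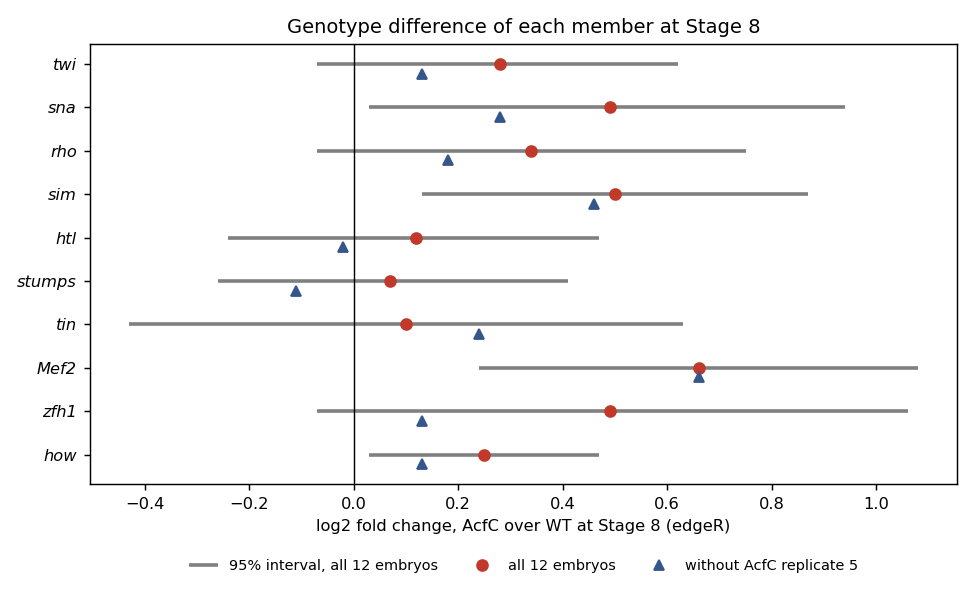
Log2 fold change of AcfC over WT at Stage 8 for each gene by edgeR (red circles) with its 95% interval (grey bars), from 12 embryos, and the same value without AcfC replicate 5 (blue triangles). All circles lie right of 0; the triangles of htl (−0.02) and stumps (−0.11) lie left of it, and that of Mef2 (0.66) stays in place.

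The territories around the mesoderm were read in the same embryos. The list of dorsal ectoderm genes (zen, dpp, tld, ush, peb and tup) summed to 452 to 1160 CPM in AcfC embryos, against 1000 to 1250 CPM in WT embryos, and the low values belonged to AcfC replicate 5 (452 CPM) and AcfC replicate 3 (471 CPM). These are the embryos with the highest and second highest twi and sna. In AcfC replicate 5, peb, which marks the amnioserosa, had 26.4 CPM, against at least 116 CPM in each other Stage 8 embryo. pnr, a GATA factor of dorsal ectoderm and dorsal mesoderm, was taken from the list of later mesoderm and muscle genes. It had 7.91 CPM in replicate 5, against at least 77.6 CPM in each other Stage 8 embryo (both were singled out after their values were seen). Not every dorsal gene was low there, since tld had 142 CPM, within the WT range of 139 to 200 CPM and second highest of the AcfC embryos. zen, also singled out after its values were seen, had 3.22 CPM, below the WT range of 11.1 to 42.4 CPM, but AcfC replicate 6 had less (0.732 CPM). dpp, ush and tup are not given singly here. The neuroectoderm list (sog, brk, vnd, ind, sca and l(1)sc) summed to 1820 to 2750 CPM in AcfC embryos, with the highest value in replicate 5, and to 1220 to 1860 CPM in WT embryos. A large part of these sums was sca, which alone averaged 926 CPM in AcfC and 642 CPM in WT. None of the genes of these lists was at 0 in all embryos of a group at this stage. The part of these embryos' composition or exact age in the values above was not tested.

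Between single embryos of Stage 8, twi and sna varied together most closely. The pairs were read over the 12 embryos as correlations of log2 CPM with the genotype mean removed, with two-sided permutation tests and Benjamini-Hochberg adjustment over the 45 pairs. Of these, 30 were positive, the median r was 0.34, and 3 passed an adjusted p of 0.1 by Pearson's r and 3 by Spearman's rho. The share over pairs of other genes was not determined, so these counts are not a trait particular to the members. For twi and sna, Pearson's r was 0.93 (permutation p = 4e-05, adjusted p = 0.0018) and Spearman's rho was 0.90 (permutation p = 0.00021, adjusted p = 0.00945). It was 0.95 within AcfC, 0.93 within WT, 0.93 and 0.99 in the first and second index set, 0.89 without AcfC replicate 5 and 0.85 without the 2 embryos farthest from the median of twi.

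rho and tin varied in opposite directions, with r = −0.86 (permutation p = 0.00025, adjusted p = 0.00562) and a Spearman coefficient of −0.75 (permutation p = 0.00657, adjusted p = 0.0985) over the 12 embryos. This correlation was −0.86 and −0.84 in the 2 index sets, −0.86 within AcfC, −0.88 within WT, −0.78 without AcfC replicate 5 and −0.82 without the 2 embryos farthest from the median of rho. The embryo with the most rho, AcfC replicate 5, had 132 CPM of rho and 28.4 CPM of tin, and AcfC replicate 6 had 75.4 and 95.5 CPM. For twi and stumps r was 0.81 (permutation p = 0.00123, adjusted p = 0.0184), but Spearman's rho was 0.61 (permutation p = 0.0408, adjusted p = 0.333), and r was −0.12 in the first index set and 0.98 in the second, so this relation did not hold within both sets. For tin and Mef2, r was 0.69 (permutation p = 0.0135, adjusted p = 0.113), which did not pass, and Spearman's rho was 0.83 (permutation p = 0.00164, adjusted p = 0.0369), which did. Their r was 0.88 and 0.58 in the 2 index sets, 0.61 within AcfC, 0.92 within WT, 0.89 without AcfC replicate 5 and 0.87 without the 2 embryos farthest from the median of tin.

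**Figure D3:**
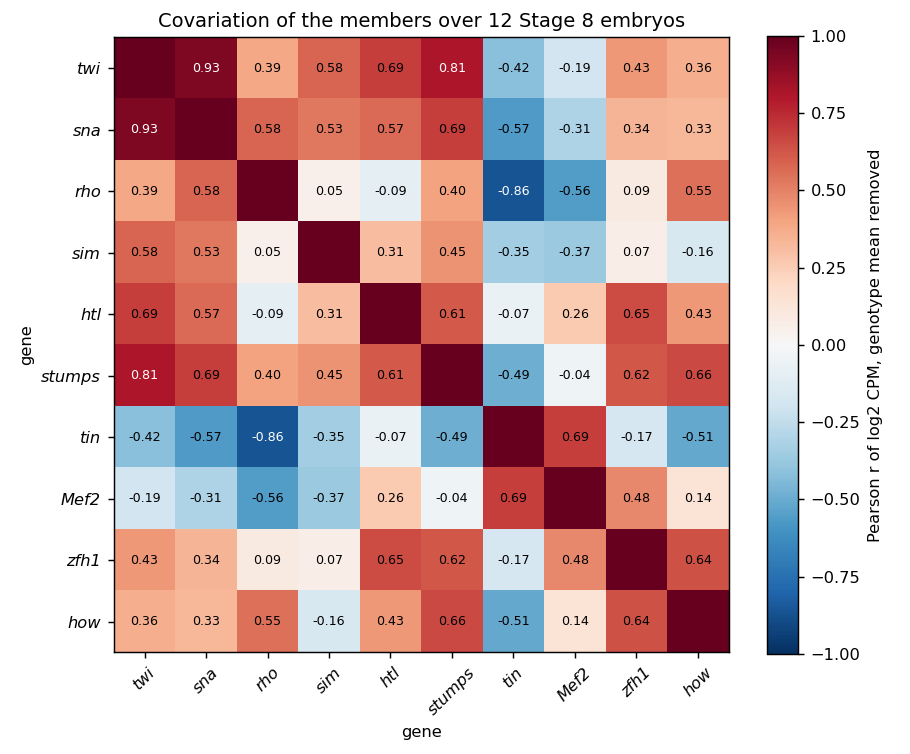
Pearson correlation of log2 CPM between each pair of the 10 genes over 12 Stage 8 embryos, after removal of the genotype mean; rows and columns are genes and the colour runs from −1 (blue) to 1 (red). twi, sna, htl and stumps are red with one another (0.57 to 0.93), and tin is blue with rho (−0.86) and sna (−0.57).

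Over 5691 other protein-coding genes with at least 10 CPM on average at Stage 8, the gene most like each member was found by the same measure over the 12 embryos, as a description. It was ltl for twi (r = 0.93), Zasp52 for sna (0.92), fok for rho (0.95), Paf-AHalpha for sim (0.89), and Cyp310a1 for htl (0.91). It was if, which encodes an integrin subunit, for stumps (0.93), CG6420 for tin (0.91), CenB1A for Mef2 (0.91), wts for zfh1 (0.95) and Cadps for how (0.93). For twi and for sna, no gene outside the list was closer than the other of the pair. In contrast, 362 genes were closer to rho than its nearest member was, and 208 genes were closer to Mef2 than tin was.

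Compared per kilobase over the union of a gene's exons, sna, twi, how and stumps made up the 4 highest members after ZGA in both genotypes. In AcfC embryos the order of the mean levels in CPM per kb was sna (151), twi (146), how (117), stumps (104), zfh1 (59.6), htl (46.9), tin (38.5), sim (29.3), rho (28.9) and Mef2 (16.9), and the ranges of all neighbours in that order overlapped. In WT embryos it was twi (120), sna (107), stumps (98.2), how (98.2), htl (43.2), zfh1 (42.1), tin (35.8), rho (22.7), sim (20.7) and Mef2 (10.7). There, how and htl did not overlap, nor did sim and Mef2, while the other neighbours did. The order within those 4 and at the low end depended on the length used. With the length of the canonical transcript, how took rank 2 in AcfC (rank 3 with the union) and rank 1 in WT (rank 4), and sna took rank 1 in AcfC with either length and rank 4 in WT (rank 2). Mef2, whose exons together span 9188 bases but whose canonical transcript has 3908, took rank 7 in AcfC and rank 9 in WT in place of rank 10 in both.

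Before ZGA the members fell into genes with almost no reads and genes with steady levels. twi had 1, 2, 3, 0 and 1 reads in AcfC replicates 1, 3, 4, 5 and 6, against 2, 1, 0, 1, 0 and 0 reads in WT embryos. sim had at most 1 read per AcfC embryo and 0 in every WT embryo, and tin had 0 reads in the AcfC embryos and 1 read in 1 WT embryo. For htl the counts were 0, 2, 3, 4 and 3 in AcfC, against 1, 2, 3, 0, 3 and 2 in WT, and for stumps they were 3, 6, 5, 0 and 6 in AcfC, against 1, 2, 2, 2, 6 and 6 in WT. rho had 2 to 10 reads in AcfC embryos and 1 to 6 in WT embryos. At such counts a difference between the genotypes was not detectable.

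Among these genes, sna alone exceeded 10 reads in some of the 11 embryos. It had 32, 0, 21, 6 and 1 reads in AcfC replicates 1, 3, 4, 5 and 6, against 0, 1, 19, 0, 0 and 1 reads in WT embryos. The reads thus lay mainly in AcfC replicates 1 and 4 and WT replicate 3, and both genotypes held embryos with no reads. The same 3 embryos had the most reads of zen, a homeobox gene of the dorsal side (53 and 54 in AcfC replicates 1 and 4 and 35 in WT replicate 3, at most 10 in the other 8), and of tld (45, 27 and 58, at most 1 in the others), which were singled out after their values were seen. The log2 fold change of sna was 1.93 (SE 1.21, adjusted p = 0.342 by edgeR). It was 4.87 (adjusted p = 0.025 by edgeR) when WT replicate 3 was left out, so that 1 embryo decided the call. The part of small differences in age among these embryos was not tested.

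Mef2, zfh1 and how were read at steady levels before ZGA. Mef2 had 123, 140, 134, 128 and 129 CPM in AcfC embryos, against 119, 121, 121, 115, 133 and 128 CPM in WT embryos, a log2 fold change of 0.10 (SE 0.0478, adjusted p = 0.224 by edgeR). zfh1 had 125, 118, 115, 131 and 115 CPM in AcfC embryos, against 119, 104, 108, 119, 114 and 105 CPM in WT embryos (0.13, SE 0.0544, adjusted p = 0.177 by edgeR). how had 104, 108, 116, 113 and 103 CPM in AcfC embryos, against 110, 102, 103, 92.6, 102 and 104 CPM in WT embryos (0.09, SE 0.052, adjusted p = 0.283 by edgeR). All 3 varied by only 5.00 to 6.15% between embryos of a group, and AcfC and WT overlapped.

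**Figure D4:**
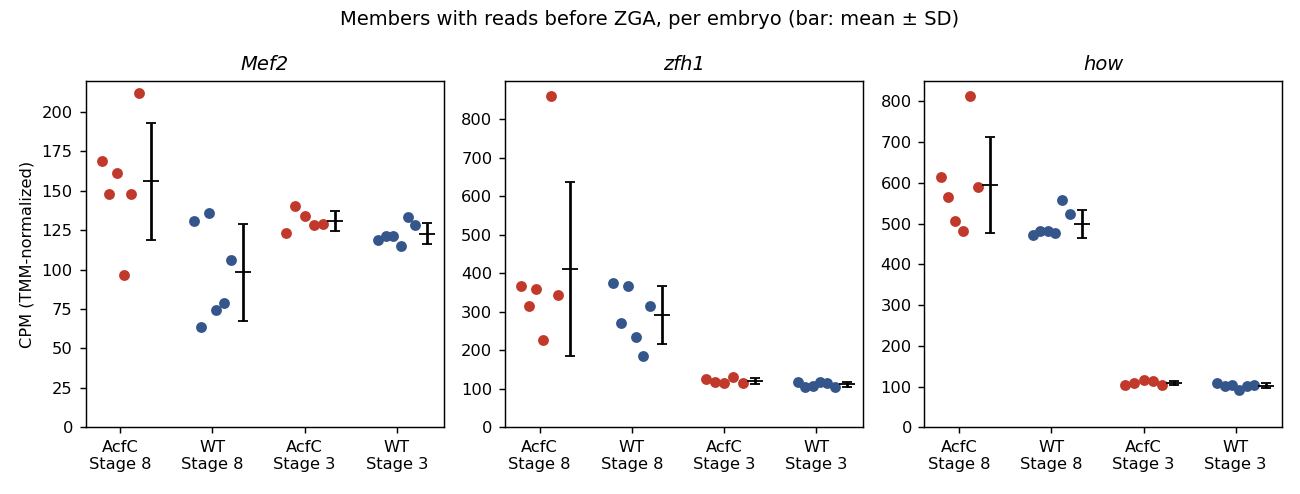
Levels of Mef2, zfh1 and how per embryo in TMM-normalized CPM, on linear axes from 0, in AcfC (red, 6 embryos at Stage 8 and 5 at Stage 3) and WT (blue, 6 and 6); black bars are the mean ± SD. At Stage 8 all zfh1 and how values lie above those of Stage 3 while Mef2 spreads to both sides of its earlier level, and at Stage 3 the 3 genes sit between 92.6 and 140 CPM in both genotypes.

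Of the 10 genes, 8 passed the filter on low counts at Stage 3 (sim and tin did not) and 0 of these were called in AcfC against WT by edgeR, with 877 of 7303 genes called (12%). At an unadjusted p under 0.05 there was 1, zfh1, against 24.6% of all genes, and DESeq2 called 0. All 8 log2 fold changes were positive with a median of 0.55, where the median over all genes was −0.003, but 5 of the 8 rest on at most 32 reads in each embryo. Within the index sets, 6 of 8 were positive in the first (median 0.46) and 6 of 7 in the second (0.16), where sna alone passed (4.71, adjusted p = 0.0915 by edgeR).

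The AcfC embryo that was left out differed from the other 11 in these genes. It had 61 reads of twi, where each other Stage 3 embryo had at most 3. It had 116 reads of stumps against at most 6, 42 of htl against at most 4, 13 of sim against at most 1 and 13 of tin against at most 1. sna, with 34 reads, and rho, with 8, were not set apart from the most extreme of the others in the same way. Relative to the WT mean of Stage 8, its twi, sna, rho, sim, htl, stumps and tin stood at 1.93 to 3.89%, with rho lowest and htl highest. With this embryo included, twi (log2 fold change 3.97, adjusted p = 0.0707), stumps (2.98, 0.0842) and zfh1 (0.15, 0.0804) passed the cutoff by edgeR.

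**Figure D5:**
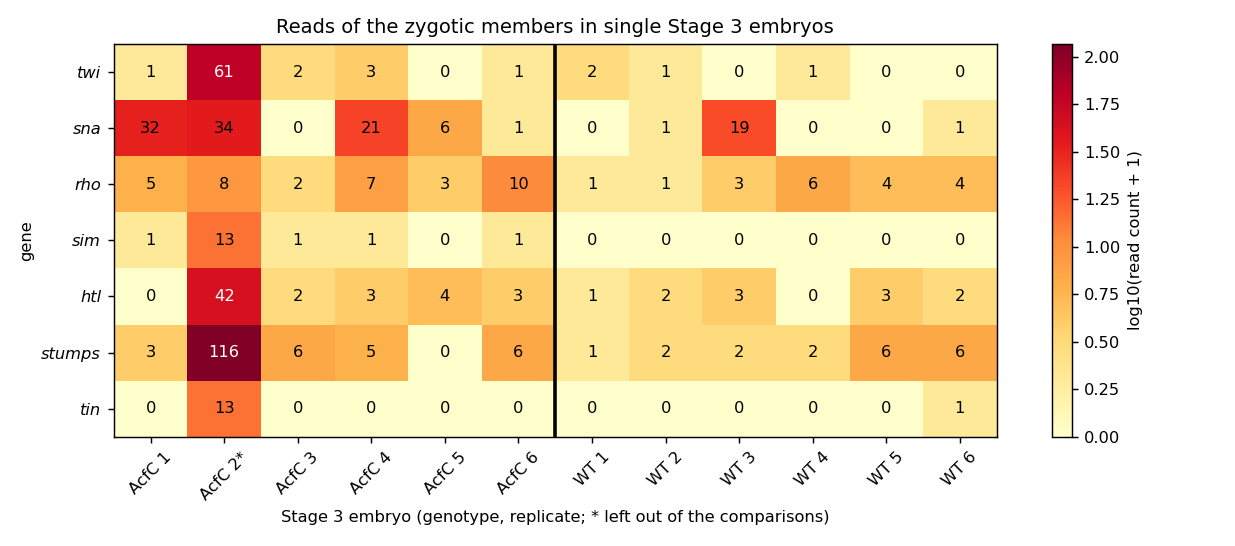
Read counts of the 7 genes with few reads before ZGA in each Stage 3 embryo, AcfC left of WT; numbers are reads, colours are log10 of the count plus 1, and the asterisk marks the AcfC embryo left out of the comparisons. That embryo holds the most reads of twi (61), stumps (116), htl (42), sim (13) and tin (13), while sna reads also occur in AcfC replicates 1 (32) and 4 (21) and in WT replicate 3 (19).

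At Stage 8 against Stage 3, 9 of the 10 genes rose in AcfC and the same 9 rose in WT by edgeR in one fit of 23 embryos, Mef2 being the exception. sim and tin, which failed the filter on low counts at Stage 3, passed it in this fit only through their Stage 8 embryos. Their calls are therefore no separate support for a rise. With 87.4% of all 8698 genes called in AcfC and 88.2% in WT, being called was common (50.5% and 50.2% were called higher). Each Stage 8 embryo lay above each Stage 3 embryo for the 9 genes, as for 39.1% of all genes in AcfC and 41.2% in WT. The median log2 fold change of the 10 genes was 7.81 in AcfC and 8.73 in WT, against 0.32 and 0.298 over all genes, and it was unchanged when tin in AcfC and sim in WT were set to their bounds below.

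The size of the rise is given from the pooled counts, as a ratio of normalized sums with an exact 95% interval. This interval covers counting error only and not the spread between embryos, so it does not compare the genotypes. For twi the ratio of Stage 8 to Stage 3 was 1460 (708 to 3630) in AcfC, where Stage 3 gave 7 reads, and 2780 (1090 to 10200) in WT, where it gave 4. For sna it was 121 (93.9 to 159) in AcfC and 329 (215 to 532) in WT, with the Stage 3 reads mainly in AcfC replicates 1 and 4 and WT replicate 3. In the edgeR fit over embryos, the 95% intervals of its log2 fold change overlapped (5.74 to 7.97 in AcfC, 7.08 to 9.49 in WT). stumps had ratios of 827 (535 to 1350) in AcfC and 1130 (722 to 1880) in WT, and htl had 481 (275 to 931) and 631 (352 to 1260). In WT the intervals of all 4 genes lay above 200, and in AcfC only that of sna reached below it. rho had the smallest ratio of the genes with few early reads, 88.6 (60.7 to 135) in AcfC and 136 (87.1 to 227) in WT. sim was at least 959-fold higher at Stage 8 in WT against 3 reads over the group, with a ratio of 747 (292 to 2750) from 4 reads in AcfC, and tin was at least 637-fold higher in AcfC, with a ratio of 2390 (427 to 94300) from 1 read in WT.

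zfh1 and how, which already had reads at Stage 3, rose far less. zfh1 averaged 412 ± 226 CPM at Stage 8 and 121 ± 7.01 CPM at Stage 3 in AcfC (SD, n = 6 and 5), a log2 fold change of 1.77 (SE 0.235, adjusted p = 2.17e-07 by edgeR). In WT it averaged 291 ± 74.7 CPM at Stage 8 and 111 ± 6.85 CPM at Stage 3 (SD, n = 6 each), which is 1.39 on the log2 scale (SE 0.219, adjusted p = 2.84e-06 by edgeR). how averaged 596 ± 118 CPM at Stage 8 and 109 ± 5.57 CPM at Stage 3 in AcfC, a log2 fold change of 2.46 (SE 0.0997, adjusted p = 3.81e-17 by edgeR). In WT, how averaged 499 ± 33.9 and 102 ± 5.65 CPM at Stages 8 and 3, a log2 fold change of 2.29 (SE 0.0925, adjusted p = 3.15e-17 by edgeR).

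Mef2 averaged 156 ± 37.3 CPM at Stage 8 and 131 ± 6.54 CPM at Stage 3 in AcfC, a log2 fold change of 0.26 (SE 0.165, adjusted p = 0.152 by edgeR). In WT it averaged 98.2 ± 30.6 CPM at Stage 8 and 123 ± 6.48 CPM at Stage 3, a log2 fold change of −0.32 (SE 0.158, adjusted p = 0.0661 by edgeR), which passed the cutoff. Of the WT embryos of Stage 8, 4 lay below and 1 above every WT embryo of Stage 3. Neither statement is firm, since the scaling between the stages moves all genes. With RLE size factors the values were 0.45 in AcfC (adjusted p = 0.014 by edgeR) and −0.10 in WT (0.541), so that Mef2 then passed in AcfC and not in WT. The WT call was also lost when any 1 of the WT embryos of Stage 3, of WT replicates 2, 4 and 5 of Stage 8, or of the AcfC embryos of Stage 3 was left out (adjusted p of 0.122 to 0.186 by edgeR). The AcfC value passed when any 1 of the WT embryos of Stage 3 (0.0944 to 0.0969) or AcfC replicate 4 of Stage 8 (0.0345) was left out.

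Whether the genotype difference itself changed between the stages was tested as an interaction. None of the 10 genes was called by edgeR, where 237 of 8698 genes were (2.72%), nor by DESeq2. At an unadjusted p under 0.05 there was 1, Mef2, against 15.3% of all genes, with an interaction of 0.57 on the log2 scale (SE 0.228, interval 0.10 to 1.04, adjusted p = 0.229 by edgeR). Mef2 passed when AcfC replicate 4 of Stage 8 was left out (0.67, adjusted p = 0.0902), and sna passed when WT replicate 3 of Stage 3 was left out (−4.21, adjusted p = 0.0867, against −1.43 and 0.543 with it). The values for the other genes ran between −2.21 for sim and 1.12 for tin, both with intervals wider than 4 log2 units.

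Genes that work with the members were read through lists around them, of which 81 of 82 symbols were matched. The lists were chosen with earlier results of these data known, so their counts are a description and were not tested against all genes. After ZGA, 77 of these were tested in AcfC against WT, with 8 higher, 1 lower and a median log2 fold change of 0.24, where 4.28% of all genes were called and their median was 0.014. Of the early ventral and mesoderm genes 1 of 13 was higher (median 0.19), of the FGF pathway 1 of 9 (0.15), of the EGF receptor pathway 2 of 7 (0.28), of the mesectoderm and midline genes 2 of 7 (0.22) and of the neuroectoderm genes 2 of 6 (0.46). None of 16 later mesoderm and muscle genes (0.38), 7 maternal Toll and Dorsal inputs (0.03) and 6 endoderm and hemocyte genes (0.54) passed, and 1 of 6 dorsal ectoderm genes was lower (−0.32). wntD, a Wnt-family feedback inhibitor of Toll signalling that Dorsal itself turns on, averaged 128 ± 20.0 CPM in AcfC embryos and 75.1 ± 14.5 CPM in WT embryos (SD, n = 6 each). Its ranges of 103 to 157 CPM in AcfC and 55.9 to 90.7 CPM in WT did not overlap. Every AcfC embryo lay above every WT embryo in 1.12% of all genes tested, and wntD was picked from 77 list genes by its fold change. The log2 fold change of wntD was 0.77 (SE 0.139, adjusted p = 0.0112 by edgeR). It was 0.57 (adjusted p = 0.254) within the first index set and 0.94 (0.181) within the second, which hold 3 embryos of each genotype.

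vn, which encodes the neuregulin-like ligand of the EGF receptor, averaged 149 ± 37.3 CPM in AcfC and 94.3 ± 16.0 CPM in WT, a log2 fold change of 0.65 (SE 0.152, adjusted p = 0.0442 by edgeR). That call was lost without WT replicate 4 (0.61, adjusted p = 0.103) and within the first (0.64, 0.108) and second index set (0.66, 0.351). tld, the metalloprotease that frees the dorsal BMP ligands from Sog, was lower, with 110 ± 28.4 CPM in AcfC and 162 ± 22.5 CPM in WT (−0.56, SE 0.149, adjusted p = 0.0701 by edgeR). Its call was lost when any 1 of WT replicates 1, 2 and 4 or AcfC replicates 2, 3, 4 and 6 was left out (adjusted p of 0.101 to 0.152) and in one fit of all 4 groups (0.557). It was also lost within the first (adjusted p = 0.308 by edgeR) and second index set (0.349).

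Before ZGA, 48 genes of the lists were tested, with 6 higher and 1 lower in AcfC and a median log2 fold change of 0.06. Over all genes 12% were called and the median was −0.003, so the number called in the lists was near the background. The higher ones were 2 of 7 early ventral genes, 1 of 8 FGF genes, 1 of 6 EGF receptor genes, 1 of 6 later mesoderm genes and 1 of 7 Toll and Dorsal inputs. fog, whose secreted product drives apical constriction in the ventral furrow, averaged 230 ± 23.8 CPM in AcfC and 170 ± 13.6 CPM in WT (SD, n = 5 and 6), a log2 fold change of 0.45 (SE 0.0717, adjusted p = 0.00241 by edgeR). Mes2 averaged 202 ± 17.0 CPM in AcfC and 159 ± 11.7 CPM in WT (0.35, SE 0.0614, adjusted p = 0.00418 by edgeR). peb was lower, with 6.31 ± 2.06 CPM in AcfC and 14.6 ± 2.18 CPM in WT (−1.23, SE 0.2, adjusted p = 0.00266 by edgeR). In one fit of all 4 groups Mes2 (adjusted p = 0.226) and peb (0.166) did not pass. Within the first index set fog (adjusted p = 0.153 by edgeR) and peb (0.33) did not pass and Mes2 (0.0781) did. Within the second, fog (0.0263), Mes2 (0.0871) and peb (0.0141) passed.

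Between the stages, 61 of 74 list genes rose and 10 fell in AcfC, and 57 rose and 10 fell in WT, where 87.4% of all genes were called in AcfC and 88.2% in WT (50.5% and 50.2% higher). Only 48 list genes passed the filter at Stage 3, so others of the 74 passed here only through Stage 8 embryos. Their calls are no separate support for a rise. The falling genes included 5 of the 7 maternal Toll and Dorsal inputs in both genotypes. Tl, the receptor itself, averaged 244 ± 46.7 CPM at Stage 8 and 1020 ± 51.9 CPM at Stage 3 in AcfC (log2 fold change −2.06) and 208 ± 76.4 and 1050 ± 27.1 CPM at Stages 8 and 3 in WT (−2.34). tub, its adaptor, fell by 2.24 in AcfC and by 2.20 in WT on the same log2 scale. The genes with the largest fitted rises were sca (12.80) and gcm in AcfC and the T-box gene mid (11.64) and the Sox gene D (11.51) in WT, all with adjusted p of at most 5.76e-07 by edgeR. gcm had 0 reads in all Stage 3 embryos and was at least 605-fold higher at Stage 8 in AcfC, against 3 reads over the group. In WT at Stage 3, mid reached at most 0.161 CPM and D at most 0.39 CPM, and sca reached at most 0.26 CPM in AcfC. The fitted sizes of these rises thus rest on values near the floor. gcm, mid and D passed the filter of this fit only through Stage 8 embryos, so their calls are no separate support for a rise. Of the list genes, 0 of 74 were called in the interaction by edgeR.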

How the data were processed

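Per the labels and the methods, RNA from single embryos was depleted of rRNA and made into nondirectional libraries. The authors mapped the reads with STAR 2.5.0a to Release 6 of the Drosophila genome and deposited raw counts of reads for 17370 genes in each of 24 embryos. The Ensembl annotation of BDGP6 lists 13728 of these genes as protein-coding and does not list 215. Genotype, stage and replicate came from the labels. The members and lists were chosen with earlier results of these data known.

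Genes other than protein-coding ones, and genes at 0 in 50% or more of the embryos of a fit, were dropped, by the rule the study states. Here this left 9448 genes at Stage 8, 7303 at Stage 3 and 8698 in the fit of all 4 groups (23 embryos, with 1 shared spread). The study reports larger numbers of coding genes at both stages, and it tested them with DESeq2. Counts were tested in R 4.3.3 with edgeR 4.0.16 (quasi-likelihood test, two-sided, TMM, prior count 0.125), with Benjamini-Hochberg adjustment over all genes tested and a cutoff of 0.1. Alternatives were DESeq2 1.42.0, other scalings and filters, the index sets, the replicate number as a block, one fit of all groups, all 6 AcfC embryos of Stage 3 and leaving out each embryo. Correlations used 100000 resamples, whose smallest possible p is 1e-05. Differences between groups rest on the spread between single embryos. The test was checked on simulated counts. Lower bounds use a floor of 3 counts over a group. Named genes were the 10 members, Acf, the gene most like each member (mean of at least 10 CPM at Stage 8), and, from the lists, the 2 called genes furthest from 0 in each direction that averaged at least 10 CPM at the stage. The list genes zen and pnr were named in addition, after their values were seen. Of 82 list symbols, 2 were matched by a synonym and 1 not at all. Promoter and protein sequences were not analysed here.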

Additional observations from a re-analysis of the deposited data

Results flagged for a closer look

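Among 40 groups of embryos tested for a value far from the others, 4 stood apart, and chance gives about 1 in 20. stumps (915 CPM) and zfh1 (861 CPM) had their highest value in AcfC replicate 5 of Stage 8, far from the other 5 embryos. sna had 3.70 CPM in WT replicate 3 of Stage 3, where the other WT embryos had at most 0.161 CPM. tin had 0.129 CPM, which is 1 read, in WT replicate 6 of Stage 3 and 0 in the other 5.

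In the AcfC embryo of Stage 3 that the study left out, 5 members had at least 3 times as many reads as any other Stage 3 embryo: twi at 9.99 CPM, sim at 2.13 CPM, htl at 6.88 CPM, stumps at 19.0 CPM and tin at 2.13 CPM. The highest values in the other 11 embryos were 0.601, 0.22, 0.619, 1.32 and 0.129 CPM in the same order. zfh1 was also highest there, at 132 CPM against at most 131 CPM in the others.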

How the results depend on the processing

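The 9 genes that rose from Stage 3 to Stage 8 in either genotype did so under each of 32 alternatives. The count of genes called in AcfC against WT at Stage 8 (404) was 653 with DESeq2, 252 with the replicate number as a block, 950 in one fit of all 4 groups, 51 and 2 in the first and second index set, and 193 to 449 when 1 embryo was left out. At Stage 3 the count (877) was 312 with the replicate block, 418 in one fit of all groups, 52 and 943 in the first and second index set, 1341 with all 6 AcfC embryos and 475 to 1842 when 1 embryo was left out. For the interaction (237) it was 579 with DESeq2, 447 with all 6 AcfC embryos and 153 to 542 when 1 embryo was left out. The cause of these shifts was not tested.

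Members that changed sign did so without a call on either side. At Stage 8 stumps was −0.17 in the first index set, and with 1 embryo left out htl ran from −0.02 to 0.20, stumps from −0.11 to 0.13 and tin from −0.03 to 0.24, while the median of the members ran from 0.15 to 0.37. At Stage 3 htl was −0.69 and how −0.0044 in the first index set and stumps −0.11 in the second. With all 6 AcfC embryos the interaction of tin was −2.87. Same-numbered AcfC and WT embryos deviated with r of −0.06 to 0.15 at Stage 8 and −0.55 to 0.26 at Stage 3, so the numbers did not pair the embryos; with the number as a block, Mef2 (0.68) and sim (0.46) passed at Stage 8, and only 2 of 11 Stage 8 and Stage 3 embryo numbers matched best with their own. At Stage 3 the values of twi, sna, rho, sim, htl, stumps and tin rest on 0 to 32 reads in each embryo compared.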
